A study of Homo sapiens with 12 samples.

Results

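GSK343 and XL413 were set directly against each other in A375 cells, an established BRAF-mutant human melanoma line, to find the genes whose RNA level tells the compounds apart without passing through their shared solvent control. The members were chosen by their labels and not by measured values: they are the 3 libraries of cells given 1 µM GSK343 for 24 h and the 3 of cells given 1 µM XL413 for 24 h, 6 of the 12 libraries in the series. The other 6 libraries, 3 of cells given GSK343 and XL413 together at 1 µM each and 3 of cells given the solvent DMSO, entered no test here, and their levels are given only beside the comparison. The labels call the 3 libraries of a group biological replicates and name 1 cell line, so each p-value below measures the spread between cultures of that line. Each compound was given at 1 dose and 1 time, and the counts hold no direct measure of the activity of CDC7 or EZH2.

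XL413 inhibits CDC7, a kinase that together with its partner DBF4 phosphorylates the MCM helicase and so lets licensed origins of replication fire during S phase. GSK343 inhibits EZH2, the catalytic subunit of Polycomb repressive complex PRC2, which places the repressive methyl marks on lysine 27 of histone H3. The compounds thus act on different enzymes, one in DNA replication and one in chromatin silencing, and a difference between them can arise from either side of the comparison.

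The 6 libraries held 31553205 to 36131973 expected counts each, the read number per gene that RSEM estimates, and 15119 of the 26475 listed genes had enough counts to be tested. Levels are CPM (counts scaled to the library size) scaled by TMM over all 12 libraries, and a log2 fold change is GSK343 over XL413. In the first principal component, which held 49.3% of the variance of the 6 libraries, the GSK343 libraries lay at −14.1 to −4.01 and the XL413 libraries at 5.54 to 10.9. SOX10, a transcription factor of the neural crest and melanocyte lineage, was at 296 to 370 CPM in these libraries, whereas the pigment genes PMEL, MLANA and DCT reached at most 1.04 CPM and TYR had no count. AXL and NGFR, markers of undifferentiated melanoma cells, lay at 350 to 460 CPM and at 45.8 to 53.5 CPM. Of markers of other cells, EPCAM, CDH1, PTPRC and CD3E were at or below 0.224 CPM, while the keratin KRT14 lay at 18.2 to 23.3 CPM and the collagen COL1A1 at 52.5 to 113 CPM. Replicate 2 of the combination stood apart from the other libraries of the series: the SD across genes of its log2 deviation from the rest of its group was 0.277, against 0.132 to 0.177 for the other 11 libraries. It is in no test here, and counts that set the combination beside the compounds are given with and without it. In bulk RNA, fewer cells in a state and less RNA per cell cannot be told apart.

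Many genes separated the compounds, but by small steps. Genes of cholesterol synthesis were higher with GSK343 than with XL413, and genes of mitosis and of replication licensing were lower. Of the 15119 tested genes, 1120 differed at an adjusted p under 0.05 by edgeR's quasi-likelihood test with Benjamini-Hochberg adjustment, which is 7.41% of them, and these are called below. With GSK343, 491 were higher (3.25% of tested genes) and 629 were lower (4.16%). Counts of called list members below are to be read against these shares. The median difference among called genes was 1.22-fold for those higher with GSK343, and 1.17-fold, taken as XL413 over GSK343, for those lower with it. Beyond 1.5-fold lay 59 of the higher and 41 of the lower genes, and beyond 2-fold 11 and 25. For 7775 genes (51.4%), the 95% interval of the difference lay within 1.2-fold in either direction, and 186 of these were called. At the edge of the call, the junction gene GJA5 was just inside with an adjusted p of 0.0499 and CABLES1 just outside with 0.0501. The number of calls rested on the libraries: it was between 333 without XL413 replicate 2 and 1273 without GSK343 replicate 1, with 490 without XL413 replicate 1, 516 without GSK343 replicate 2 and 593 without XL413 replicate 3. Every gene called higher, and 619 of the 629 called lower, had libraries that did not overlap between the compounds, as did 14.8% of all tested genes with GSK343 above and 14.2% with XL413 above, so groups that do not overlap add nothing to a call. A gene named as called below without a further remark was called in each of the 6 fits that left out 1 library.

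**Figure D1:**
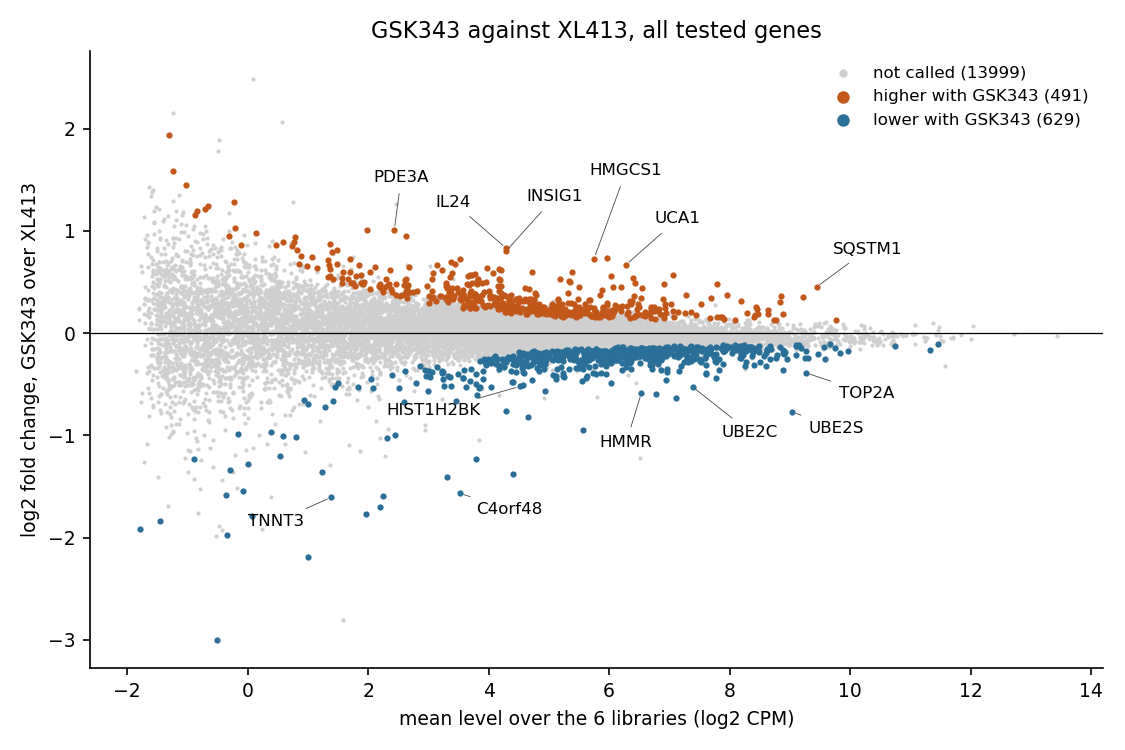
Difference of each tested gene between GSK343 and XL413 (y axis, log2 fold change, GSK343 over XL413) against its mean level (x axis, log2 CPM), with called genes coloured by direction and some genes named. The 491 genes called higher with GSK343 lie above 0 and the 629 called lower lie below it, most of them close to the line.

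**Figure D2:**
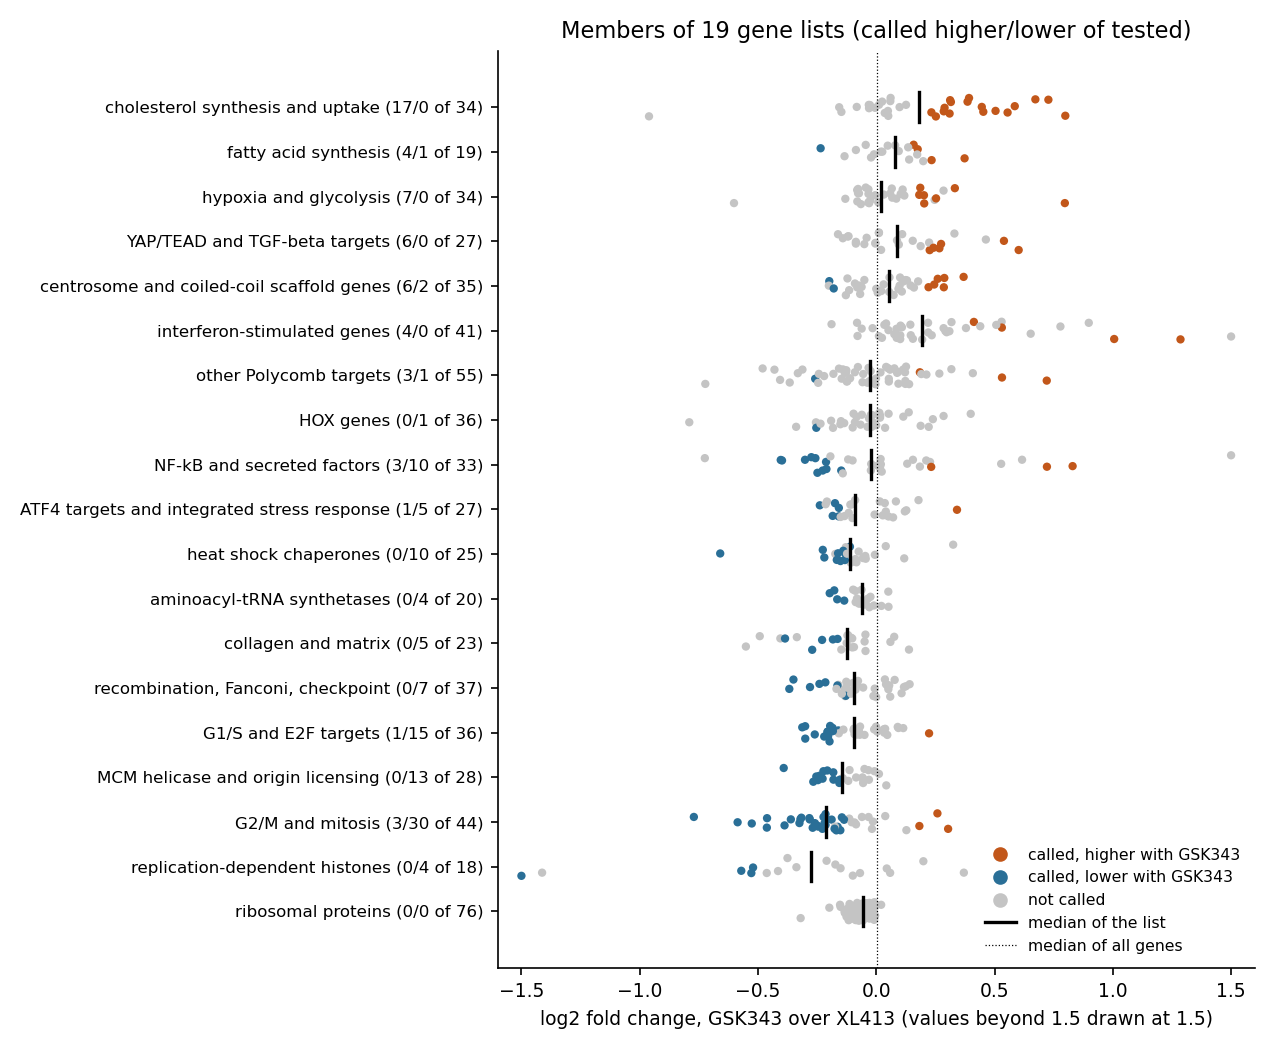
Log2 fold change, GSK343 over XL413 (x axis), of every tested member of 19 gene lists (rows), with each point 1 gene, coloured where called, a black bar at the median of the list and a dotted line at the median of all genes. The 17 called cholesterol genes lie to the right of 0 and most of the 44 mitotic genes to the left of it.

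Cholesterol synthesis had the largest share of members called higher with GSK343 of the lists described. The pathway builds cholesterol from acetyl units through mevalonate and squalene, and its genes are driven by SREBP2, the product of SREBF2, when membranes run low in sterol. Of 34 tested genes of synthesis, uptake and their control, 17 were called higher with GSK343, against 3.25% of all tested genes, and the other 17 were not called. The median log2 difference of the 34 was 0.18, against 0.00 over all tested genes and 0.19 for the interferon genes described further on, and 15 to 17 members stayed called higher when 1 library was left out. Near the start of the pathway, HMGCS1 (HMG-CoA synthase, chromosome 5, 43289395 to 43313512 on GRCh38) was at 68.2, 64.9 and 67.0 CPM with GSK343, against 41.5, 39.3 and 39.7 CPM with XL413. All 3 GSK343 libraries lay far above all 3 XL413 libraries, a difference of 1.66-fold (log2 0.73 ± 0.043 (SE), adjusted p = 6.67e-06).

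The genes that control the pathway were higher too. INSIG1 (chromosome 7, 155297776 to 155310235), which holds the SREBP-SCAP complex in the endoplasmic reticulum, was at 26.5, 24.4 and 22.8 CPM with GSK343, against 14.96, 13.5 and 13.8 CPM with XL413. It had the largest difference of the called list members, 1.74-fold (log2 0.80 ± 0.069, adjusted p = 6.91e-05). SREBF2 itself was at 104, 111 and 106 CPM with GSK343, against 78.4, 77.2 and 78.8 CPM with XL413 (log2 0.45 ± 0.040, adjusted p = 8.04e-05). All 3 GSK343 libraries of each gene lay above its XL413 libraries. STARD4, a carrier of cholesterol between membranes, differed by 0.67 ± 0.098 on the log2 scale.

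Along the later steps, squalene epoxidase SQLE was at 46.0, 47.7 and 48.3 CPM with GSK343 and 33.5, 32.7 and 33.6 CPM with XL413 (log2 0.50 ± 0.043). DHCR7, which makes cholesterol from 7-dehydrocholesterol (chromosome 11, 71428193 to 71452868), was at 76.6, 79.1 and 75.6 CPM with GSK343, against 53.2, 53.2 and 50.7 CPM with XL413 (log2 0.56 ± 0.041, adjusted p = 3.91e-05). Both were higher in every GSK343 library than in any XL413 library. The demethylation enzymes MSMO1 (log2 0.59 ± 0.064) and CYP51A1 (0.45 ± 0.049) and the desaturase SC5D (0.39 ± 0.050) were called too, as were the reductase HSD17B7 (0.39 ± 0.067), the decarboxylase MVD (0.31 ± 0.057), the squalene synthase FDFT1 (0.29 ± 0.034) and the cyclase LSS (0.29 ± 0.043). IDI1, the isopentenyl isomerase, missed the threshold without XL413 replicate 2 (adjusted p = 0.0502), and mevalonate kinase MVK missed it in 4 of the 6 fits, with an adjusted p of up to 0.0907. SREBF2, STARD4 and the 9 genes from MSMO1 to MVK were named after their values were seen.

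Among the 17 members not called were the farnesyl diphosphate synthase FDPS (log2 0.06, 95% interval −0.03 to 0.15), the SREBP escort SCAP (−0.01, −0.10 to 0.09) and the sterol exporter ABCA1 (−0.15, −0.44 to 0.15), named after their values were seen. The intervals of FDPS and SCAP exclude a difference of the size seen in HMGCS1.

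The libraries outside the test fell on either side of this difference. For all 17 called genes the mean of the combination lay nearer to GSK343 than to XL413, with and without combination replicate 2, and for 16 of the 17 the mean of DMSO lay nearer to XL413. HMGCS1 was at 68.1, 67.1 and 71.2 CPM with the combination and 41.9, 40.3 and 43.1 CPM with DMSO. INSIG1 was at 22.7, 25.1 and 22.7 CPM with the combination and 14.7, 15.02 and 15.3 CPM with DMSO. Both genes were high in the 6 libraries that received GSK343 and low in the 6 that did not.

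The promoter of SREBF2 is shown because it was the only one of the matched promoters of called cholesterol genes that held a strict copy of the sterol regulatory element. The sequence is from RefSeq (GRCh38.p14), reads 5′ to 3′ on the plus strand and spans the 250 bases before to the 50 after the start at chr22:41832855-41833154. Capitals mark the sterol regulatory element, searched as ATCAC, then any base, then CCAC, and the NF-Y box, searched as CCAAT and found here on the minus strand.
SREBF2: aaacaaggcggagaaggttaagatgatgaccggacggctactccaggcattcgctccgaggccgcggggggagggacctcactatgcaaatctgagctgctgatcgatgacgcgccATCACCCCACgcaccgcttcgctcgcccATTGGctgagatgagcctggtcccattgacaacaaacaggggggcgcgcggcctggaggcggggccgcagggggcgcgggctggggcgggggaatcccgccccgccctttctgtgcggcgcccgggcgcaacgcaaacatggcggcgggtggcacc
Both strands were searched. Genes are counted where any of their promoters holds the motif. The sterol element was found in 54 of 35116 promoters (0.154%) and in 0.19% of all genes with a promoter. It was found in 1 of the 13 called cholesterol genes with a matched promoter (of 17). Among the other 17 of the list it was found in 0 of 14 matched. The NF-Y box was found in 34.6% of all promoters, 39.7% of all genes with a promoter and 43.4% of tested genes with one. It was found in 12 of the 13 and in 7 of the 14. A match is a description of these letters in this window and does not show binding.

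Fatty acid genes were mixed. Of 19 tested, 4 were called higher (21.1%) and 1 lower (5.26%) with GSK343, against 3.25% and 4.16% of tested genes. The median log2 difference was 0.08. SCD, the stearoyl-CoA desaturase, was at 274, 277 and 286 CPM with GSK343, against 219, 209 and 217 CPM with XL413 (log2 0.37 ± 0.035, adjusted p = 0.000113). SREBF1, which encodes the SREBP form that drives fatty acid synthesis, was the one called lower, at 76.6, 78.4 and 73.8 CPM with GSK343, against 91.7, 90.8 and 86.1 CPM with XL413 (log2 −0.24 ± 0.042, adjusted p = 0.00719). Its direction was opposite to that of SREBF2. The desaturase FADS1 missed the threshold without XL413 replicate 2 (adjusted p = 0.0988), and the phosphatidate phosphatase LPIN1 missed it without GSK343 replicate 2 (0.0636), XL413 replicate 2 (0.0620) or XL413 replicate 3 (0.0653). Without XL413 replicate 2, 1 member stayed called higher. The synthase FASN (log2 0.05, 95% interval −0.07 to 0.16) and the carboxylase ACACA (−0.01, −0.11 to 0.09), named after their values were seen, were not called.

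**Figure D3:**
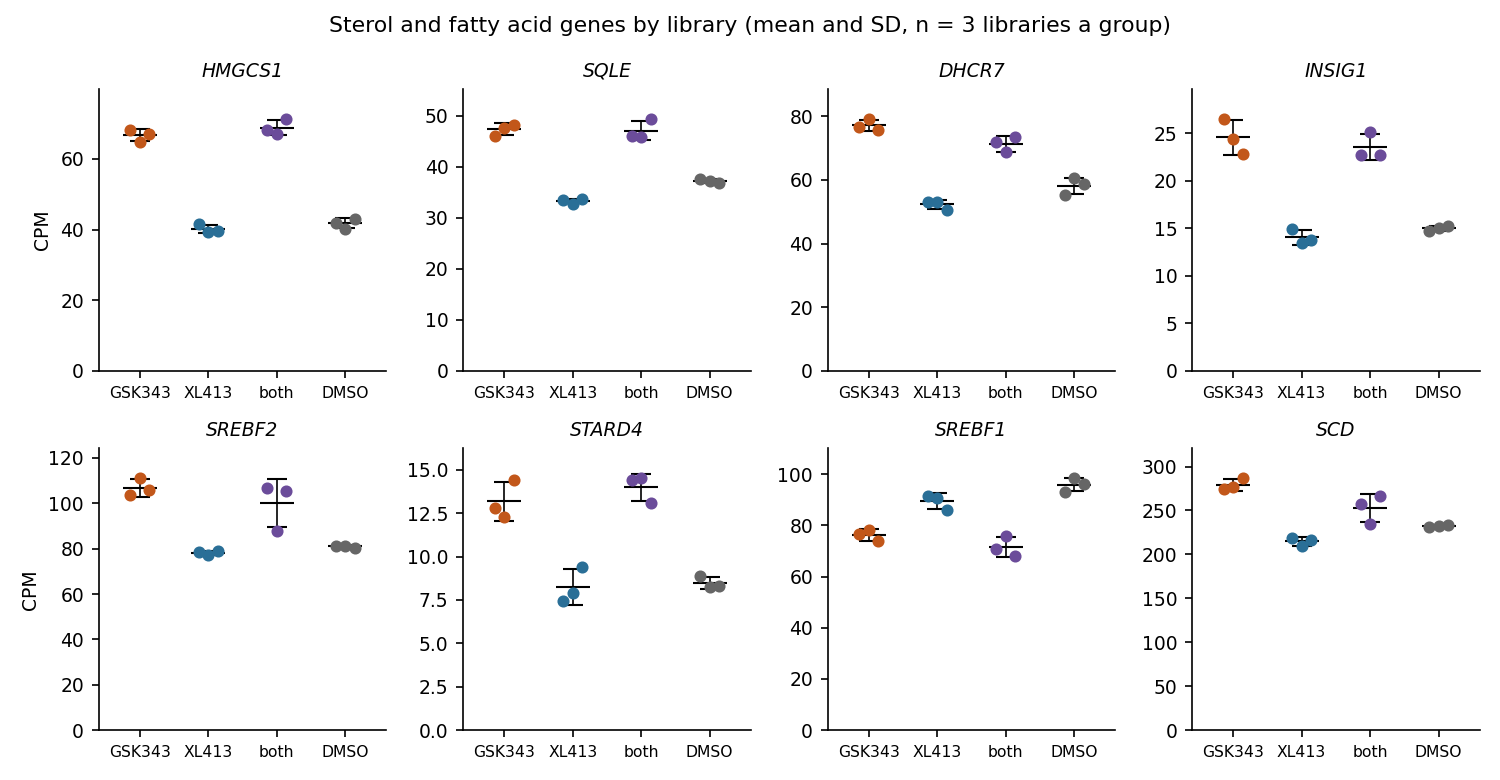
Levels (CPM) of lipid genes in every library, with GSK343 first, then XL413, the combination and DMSO; each point is 1 library, and lines give the mean and SD of 3. HMGCS1, INSIG1 and DHCR7 are high in the libraries that received GSK343, while SREBF1 is low there.

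Genes of G2 and mitosis were lower with GSK343 than with XL413. They encode the kinases, cyclins, spindle proteins and ubiquitin enzymes that carry a cell through division, and many are known to be repressed before G2 through a CHR element in their promoter, often beside NF-Y boxes. Of 44 tested, 30 were called lower with GSK343, against 4.16% of all tested genes, and 3 were called higher. The median log2 difference of the 44 was −0.21. Between 20 and 29 stayed called lower when 1 library was left out, the fewest without XL413 replicate 2.

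HMMR, a hyaluronan receptor that also sits on the spindle (chromosome 5, 163460203 to 163491945), was at 73.6, 70.3 and 77.8 CPM with GSK343, against 109, 109 and 114 CPM with XL413 (log2 −0.59 ± 0.044, adjusted p = 3.91e-05). The ubiquitin-conjugating enzyme of the anaphase-promoting complex, UBE2C (chromosome 20, 45812576 to 45816957), was at 142, 139 and 129.8 CPM with GSK343, against 191, 209 and 189 CPM with XL413 (log2 −0.53 ± 0.048, adjusted p = 8.69e-05). In both genes every XL413 library lay above every GSK343 library, by a gap wider than the spread inside either group. UBE2S, which extends the ubiquitin chains that UBE2C starts, was among the 10 largest falls, at 421, 410.4 and 330.3 CPM with GSK343 and 679, 727 and 572 CPM with XL413 (log2 −0.77 ± 0.092).

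The mitotic kinases followed. CDK1, the kinase that starts mitosis (chromosome 10, 60778331 to 60794852), was at 108, 99.8 and 102 CPM with GSK343, against 135, 144 and 146 CPM with XL413 (log2 −0.46 ± 0.043, adjusted p = 0.000122). AURKA, which matures the centrosomes, was at 199, 197 and 196 CPM with GSK343, against 253, 253 and 252 CPM with XL413 (log2 −0.36 ± 0.031). In both the lowest XL413 library lay above the highest of GSK343. Named after their values were seen, TOP2A (topoisomerase II, log2 −0.39 ± 0.040), the anaphase activators CDC20 (−0.32 ± 0.032) and FZR1 (−0.27 ± 0.041), the cyclin CCNB2 (−0.32 ± 0.039), the midzone organiser PRC1 (−0.32 ± 0.034), survivin BIRC5 (−0.28 ± 0.036) and the checkpoint kinase BUB1 (−0.25 ± 0.036) were lower with GSK343 as well. Of 18 kinesin motor genes 3 were called lower (16.7%, against 4.16% of all tested genes), among them KIF4A (−0.35 ± 0.035) and KIF2C (−0.27 ± 0.034). The 1 called higher (5.56%, against 3.25%) was KIF21A (0.19 ± 0.052). KIF21A missed the threshold in 5 of the 6 fits that left out 1 library, with an adjusted p of up to 0.183. With a correction for the GC content and length of transcripts 6 kinesin genes were called lower and none higher. The cyclin CCNA2 (log2 −0.06, 95% interval −0.14 to 0.02) and the kinase AURKB (−0.09, −0.17 to 0.00), also named after their values were seen, were not called.

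The 3 mitotic genes called higher with GSK343 have long transcripts. MKI67, the proliferation antigen Ki-67 (12678 nt), was at 481, 492 and 539 CPM with GSK343, against 425, 395 and 402 CPM with XL413 (log2 0.30 ± 0.046, adjusted p = 0.00281). The kinetochore gene CENPE (8612 nt, log2 0.26 ± 0.063) missed the threshold without XL413 replicate 2 (adjusted p = 0.125) or replicate 3 (0.0960). CENPF (10307 nt, 0.18 ± 0.050) missed it in 5 of the 6 fits, with an adjusted p of up to 0.186. The 3 genes were named after their values were seen, and the median transcript of all tested genes was 3327 nt. With the correction for GC content and length the 3 stayed called higher, at log2 0.24 in MKI67, 0.16 in CENPE and 0.10 in CENPF. MKI67 was at 379, 200.5 and 392 CPM with the combination and 531, 556 and 555 CPM with DMSO.

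For the mitotic genes called lower, 22 of 30 had a combination mean nearer to XL413 (26 without combination replicate 2), and 22 of 30 had a DMSO mean nearer to GSK343. HMMR was at 109, 103 and 109.9 CPM with the combination and 73.6, 75.9 and 75.3 CPM with DMSO. CDK1 was at 136, 148 and 145 CPM with the combination and 104, 105 and 106 CPM with DMSO. Their DMSO libraries were thus level with those of GSK343, and the combination libraries with those of XL413, the reverse of the pattern in HMGCS1.

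Promoters of HMMR, CDK1 and CCNB2 are shown because these called genes carry both the CHR element and NF-Y boxes. The sequences are from RefSeq (GRCh38.p14), on the plus strand, which is the strand of each gene, at chr5:163460382-163460681, chr10:60778228-60778527 and chr15:59104896-59105195, each from 250 bases before to 50 after the start. Capitals mark the core of the CHR element, searched as TTTGAA, and the NF-Y box, searched as CCAAT, each on both strands, so that a match on the minus strand shows as the reverse complement. Where matches overlap or touch, the run in capitals is longer.
HMMR: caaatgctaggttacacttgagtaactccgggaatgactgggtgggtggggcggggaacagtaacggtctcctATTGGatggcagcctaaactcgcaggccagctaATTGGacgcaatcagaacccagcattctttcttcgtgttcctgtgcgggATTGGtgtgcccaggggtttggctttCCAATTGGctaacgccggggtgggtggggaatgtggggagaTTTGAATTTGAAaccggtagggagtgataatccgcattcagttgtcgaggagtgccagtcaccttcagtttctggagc
CDK1: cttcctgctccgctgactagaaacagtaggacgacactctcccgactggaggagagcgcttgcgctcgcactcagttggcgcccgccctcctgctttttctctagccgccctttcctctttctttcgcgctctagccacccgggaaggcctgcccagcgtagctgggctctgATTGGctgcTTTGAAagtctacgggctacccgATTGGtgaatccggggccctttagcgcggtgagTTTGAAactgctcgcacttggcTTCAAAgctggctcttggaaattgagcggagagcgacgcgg
CCNB2: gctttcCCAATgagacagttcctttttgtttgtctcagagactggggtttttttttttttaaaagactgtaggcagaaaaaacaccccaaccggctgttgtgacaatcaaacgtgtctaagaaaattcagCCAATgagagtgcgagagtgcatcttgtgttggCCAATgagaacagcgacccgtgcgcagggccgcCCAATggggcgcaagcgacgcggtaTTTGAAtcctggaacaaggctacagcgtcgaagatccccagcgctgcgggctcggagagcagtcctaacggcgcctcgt
TTTGAA was found in 15.2% of all promoters, 18.2% of all genes with a promoter and 14.2% of tested genes with one. A gene is counted where any of its promoters holds the motif. TTTGAA was found in 17 of the 23 mitotic genes called lower that had a matched promoter (of 30). Among the other 14 of the list it was found in 8 of 11 matched. Both motifs together were found in 5.9% of all promoters, 7.26% of all genes with a promoter and 5.86% of tested genes with one. They were found in 13 of the 23 and in 7 of the 11. The motif pair was thus common in the whole list, in called and other members alike.

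Replication licensing and S-phase genes were lower with GSK343 too. Of 28 genes of the MCM helicase and its loading, 13 were called lower with GSK343 (46.4%, against 4.16% of all tested genes). The list had a median log2 difference of −0.14, and 8 to 12 members stayed called when 1 library was left out. MCM3, a subunit of the helicase ring, was at 166, 171 and 166 CPM with GSK343, against 216, 221 and 221 CPM with XL413 (log2 −0.39 ± 0.034, adjusted p = 6.91e-05). MCM4, like MCM2 and MCM6 a known substrate of CDC7, was at 396, 396 and 398 CPM with GSK343, against 476, 465 and 466 CPM with XL413 (log2 −0.25 ± 0.031). The groups of both genes were well apart, and MCM2 (−0.23 ± 0.033), MCM7 (−0.24 ± 0.032) and, named after their values were seen, MCM5 (−0.24 ± 0.038), the origin recognition subunit ORC1 (−0.27 ± 0.039) and the helicase unloader MCMBP (−0.18 ± 0.033) were called as well. MCM6 (log2 −0.03, 95% interval −0.11 to 0.05) and the loader CDC6 (−0.12, −0.20 to −0.04), named after their values were seen, were not. MCM3 was at 204, 190.2 and 205 CPM with the combination, nearer to XL413, and 182, 180.4 and 178 CPM with DMSO, nearer to GSK343. In DMSO it was an exception, as 10 of the 13 called genes had a DMSO mean nearer to XL413. The combination mean was nearer to XL413 in 6 of the 13 and to GSK343 in 7. Without combination replicate 2 it was nearer to XL413 in 11.

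Of 36 G1/S genes and E2F targets, 15 were called lower (41.7%) and 1 higher (2.78%) with GSK343, against 4.16% and 3.25% of tested genes. The median log2 difference was −0.10, but the 15 became 7 without XL413 replicate 2 and 9 without GSK343 replicate 2. Called lower were the nucleotide enzymes TK1 (log2 −0.31 ± 0.038) and TYMS (−0.30 ± 0.039), SLBP, which binds the stem-loop of histone mRNA (−0.30 ± 0.047), and the transcription factor E2F1 (−0.26 ± 0.042). DNMT1, the maintenance DNA methyltransferase, was named after its values were seen (−0.20 ± 0.035). The single gene called higher, the cyclin CCNE2 (0.22 ± 0.051), missed the threshold without XL413 replicate 1 (adjusted p = 0.0525), replicate 2 (0.101) or replicate 3 (0.0752), and was also named after its value was seen.

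Histone genes had the most negative median of the lists described, −0.27 over the 18 tested of 32 members. Called lower with GSK343 were 4 (22.2%, against 4.16% of all tested genes), each also in every fit that left out 1 library. Most replication-dependent histone mRNA has no poly-A tail, so these poly-A libraries hold only part of it, and RSEM divides reads among the near-identical copies. HIST1H2BK was at 19.6, 20.6 and 16.3 CPM with GSK343, against 26.6, 28.6 and 25.5 CPM with XL413 (log2 −0.52 ± 0.080). HIST1H2BJ was at 0.423, 0.288 and 0.378 CPM with GSK343 and 0.817, 1.15 and 1.29 CPM with XL413, the widest gap of the 4 at the lowest level (log2 −1.58 ± 0.29). HIST1H2AC (−0.57 ± 0.096) and HIST3H2A (−0.53 ± 0.067) were the others. HIST1H2BK was at 29.1, 35.5 and 28.7 CPM with the combination and 16.4, 17.4 and 16.4 CPM with DMSO, and for all 4 genes the combination mean lay nearer to XL413 and the DMSO mean nearer to GSK343.

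Among 37 genes of homologous recombination, the Fanconi pathway and the replication checkpoint, 7 were called lower with GSK343. This was 18.9%, against 4.16% of all tested genes, and the median log2 difference was −0.09. ATRIP, the partner of the checkpoint kinase ATR, was at 23.9, 25.6 and 25.3 CPM with GSK343, against 33.6, 31.9 and 30.9 CPM with XL413 (log2 −0.37 ± 0.053). The count was 2 without XL413 replicate 1, 2 without XL413 replicate 3, 3 without GSK343 replicate 2 and 3 without XL413 replicate 2, but 11 without GSK343 replicate 3 and 14 with a correction for the GC content and length of transcripts.

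**Figure D4:**
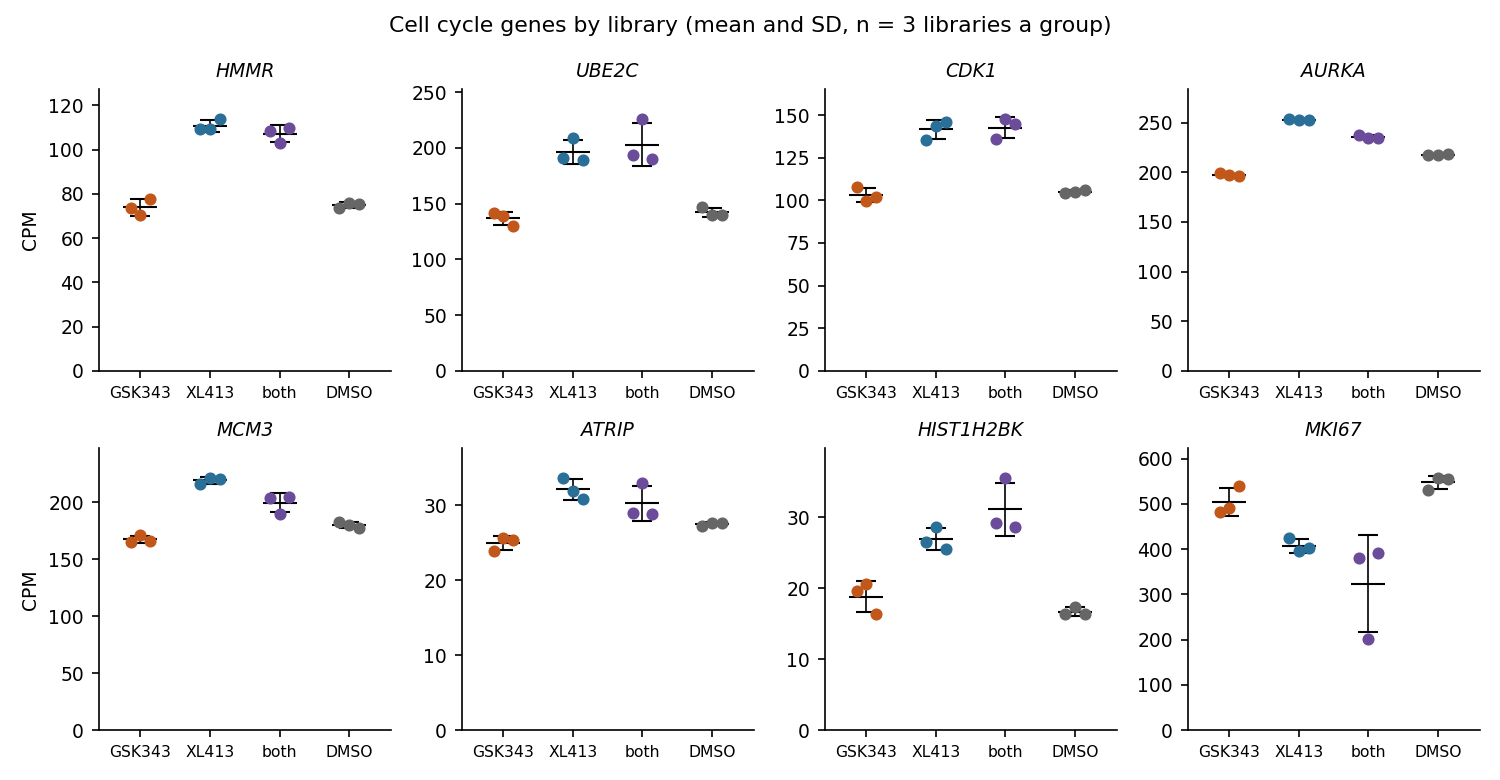
Levels (CPM) of cell-cycle genes in every library, with GSK343 first, then XL413, the combination and DMSO; each point is 1 library, and lines give the mean and SD of 3. HMMR, UBE2C and CDK1 are high in the libraries that received XL413, whereas MKI67 is low there.

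Neither enzyme gene was called. Of 14 genes for the compound targets and their partners 2 were called lower with GSK343 (14.3%, against 4.16% of all tested genes) and none higher, with a median log2 difference of −0.04. They were the PRC2 accessory subunits PHF19 (log2 −0.18 ± 0.034) and MTF2 (−0.18 ± 0.047). PHF19 missed the threshold without XL413 replicate 2 (adjusted p = 0.0544), and MTF2 without GSK343 replicate 2 (adjusted p = 0.144), XL413 replicate 1 (0.133), XL413 replicate 2 (0.145) or XL413 replicate 3 (0.0855). EZH2 was at 90.2, 86.3 and 88.9 CPM with GSK343 and 93.0, 87.7 and 90.8 CPM with XL413 (log2 −0.04 ± 0.039, adjusted p = 0.607, 95% interval −0.12 to 0.05). CDC7 was at 26.7, 25.2 and 25.1 CPM with GSK343 and 22.5, 24.6 and 22.8 CPM with XL413 (log2 0.14 ± 0.055, adjusted p = 0.156, 95% interval 0.02 to 0.26). Inhibition of an enzyme need not change its mRNA, so these values do not measure it. The other 10 genes, RBBP4, PHF1, RBBP7, SUZ12, DBF4, DBF4B, EED, AEBP2, EZH1 and JARID2, had log2 differences from −0.15 to 0.22 and were not called. In other settings of the analysis, JARID2 was called higher with GSK343 in 8 and RBBP4 lower in 6. Both were called with the correction for GC content and length, at log2 0.19 in JARID2 and −0.22 in RBBP4.

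Genes that Polycomb is known to silence held calls at a share near or below the background, which is no result about them. Of 39 HOX genes 36 had enough counts to be tested and 1 was called, HOXB2, lower with GSK343 (log2 −0.25 ± 0.056) and not past the threshold without GSK343 replicate 2 (adjusted p = 0.0547), XL413 replicate 1 (0.0559) or XL413 replicate 2 (0.0998). Of 69 other developmental regulators bound by Polycomb 55 were tested, of which 3 were called higher (5.45%) and 1 lower (1.82%), against 3.25% and 4.16% of all tested genes, with a median log2 difference of −0.03. CDKN1C, the CDK inhibitor p57 and a known EZH2 target, was at 22.9, 22.0 and 18.6 CPM with GSK343, against 14.8, 15.5 and 13.5 CPM with XL413 (log2 0.53 ± 0.083, adjusted p = 0.00367). It lay at 17.98, 20.6 and 17.7 CPM with the combination and 15.4, 15.2 and 16.1 CPM with DMSO. MEIS1 (log2 0.72 ± 0.14) missed the threshold without XL413 replicate 2 (adjusted p = 0.0648). TBX3 (0.18 ± 0.044) missed it without XL413 replicate 1 (adjusted p = 0.0572), XL413 replicate 2 (0.125) or XL413 replicate 3 (0.0961).

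Secreted factors differed in both directions. Of 33 genes of NF-kB and inflammation, 3 were called higher (9.09%) and 10 lower (30.3%) with GSK343, against 3.25% and 4.16% of tested genes. The median log2 difference was −0.02, and the 10 became 6 without XL413 replicate 1 and 3 without XL413 replicate 2. IL24, a cytokine first described in differentiating melanoma cells, was at 26.6, 24.1 and 23.9 CPM with GSK343, against 14.1, 14.6 and 13.2 CPM with XL413 (log2 0.83 ± 0.065, adjusted p = 3.94e-05). PTGES, the prostaglandin E synthase, was at 14.97, 13.7 and 13.8 CPM with GSK343, against 8.78, 8.82 and 8.13 CPM with XL413 (log2 0.72 ± 0.073, adjusted p = 0.000200). Both stood clearly higher in every GSK343 library. CXCL1, a chemokine that attracts neutrophils, was lower, at 74.6, 72.7 and 72.5 CPM with GSK343, against 84.8, 89.0 and 88.3 CPM with XL413 (log2 −0.26 ± 0.039, adjusted p = 0.00298). CCL2, which attracts monocytes and was named after its values were seen, was at 12.5, 12.02 and 11.3 CPM with GSK343 and 14.9, 15.9 and 16.2 CPM with XL413 (log2 −0.40 ± 0.068), and NFKB2, a subunit of the factor itself, differed by −0.25 ± 0.037. Of other chemokines named after their values were seen, CXCL8 (−0.15 ± 0.040) missed the threshold in 5 of the 6 fits that left out 1 library, with an adjusted p of up to 0.168, and CXCL2 was not called (log2 −0.12, adjusted p = 0.675). With the combination PTGES was at 14.3, 13.6 and 14.4 CPM and CXCL1 at 85.9, 97.7 and 88.6 CPM, and with DMSO PTGES was at 7.30, 8.59 and 7.26 CPM and CXCL1 at 68.2, 67.4 and 66.1 CPM. The combination thus lay near GSK343 in PTGES and near XL413 in CXCL1.

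Genes of the extracellular matrix were split as well. Of 24 metalloproteinase and plasminogen genes, 4 were called higher (16.7%) and 5 lower (20.8%) with GSK343, against 3.25% and 4.16% of tested genes. The 5 became 3 without GSK343 replicate 2, 2 without XL413 replicate 1 and 1 without XL413 replicate 2. The stromelysin MMP3 was at 16.1, 14.96 and 13.9 CPM with GSK343, against 10.2, 10.2 and 10.0 CPM with XL413 (log2 0.56 ± 0.072), and the gelatinase MMP2 differed the other way (−0.24 ± 0.040). The secreted proteases ADAMTS6 (0.51 ± 0.069) and ADAMTS1 (0.29 ± 0.052) were higher with GSK343. Of 23 collagen and matrix genes 5 were called lower (21.7%, against 4.16% of all tested genes), with a median log2 difference of −0.12. Among the 5 were the collagens COL6A3 (−0.39 ± 0.067) and COL4A2 (−0.18 ± 0.032) and tenascin TNC (−0.20 ± 0.034). The 5 became 2 without GSK343 replicate 2, 2 without XL413 replicate 1 and 3 without XL413 replicate 2, but 9 without GSK343 replicate 1 and 11 with the correction for GC content and length. Fibroblast markers are also matrix genes, and their summed level was 195 to 274 CPM with GSK343 and 272 to 319 CPM with XL413. The part of these markers in the result was not tested.

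Autophagy and pigment-organelle genes held single strong differences. SQSTM1, the autophagy receptor p62, was at 832, 829 and 744 CPM with GSK343, against 583, 595 and 575 CPM with XL413 (log2 0.45 ± 0.043, adjusted p = 0.000136). GPNMB, a glycoprotein of melanosomes and lysosomes, was at 68.0, 67.3 and 66.5 CPM with GSK343, against 50.5, 49.8 and 49.7 CPM with XL413 (log2 0.42 ± 0.038, adjusted p = 8.69e-05). In both every GSK343 library lay above every XL413 library. Of 31 lysosome and autophagy genes 2 were called higher and 2 lower, and of 19 melanocyte genes 2 higher and 2 lower, against 3.25% and 4.16% of all tested genes. The median log2 difference of the lysosome and autophagy genes was −0.04, with 24 of 31 below 0. SQSTM1 was at 819, 899.6 and 807 CPM with the combination and 595, 589 and 602 CPM with DMSO. Of 22 NRF2 targets 1 was called higher with GSK343 (4.55%, against 3.25% of all tested genes) and none lower. The called gene was HMOX1, the heme oxygenase, at 21.3, 20.5 and 19.9 CPM with GSK343 and 14.2, 15.5 and 15.02 CPM with XL413 (log2 0.46 ± 0.060). Of 25 p53 targets 1 was called higher (4%) and 2 lower (8%) with GSK343, against 3.25% and 4.16% of all tested genes. Their median log2 difference was −0.06, with 16 below 0. GDF15, a stress cytokine, was the one called higher, at 16.1, 16.2 and 14.5 CPM with GSK343 and 9.97, 9.78 and 11.6 CPM with XL413 (log2 0.57 ± 0.082). Those called lower were DDB2, which recognises UV damage in DNA (−0.23 ± 0.050), which missed the threshold without GSK343 replicate 2 (adjusted p = 0.0857), XL413 replicate 2 (0.0988) or XL413 replicate 3 (0.0726), and BBC3, the apoptosis inducer PUMA (−0.32 ± 0.087), which missed it in each of the 6 fits that left out 1 library, with an adjusted p of up to 0.145.

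Called chaperone genes were lower with GSK343. The list of 25 heat shock chaperones had a median log2 difference of −0.11. Of these 10 were called lower (40%, against 4.16% of all tested genes), or 6 with upper quartile scaling. Most lay close to the threshold: 1 stayed called without GSK343 replicate 2, 2 without XL413 replicate 1, 1 without XL413 replicate 2 and 2 without XL413 replicate 3. HSPA1A, the inducible HSP70, had a log2 difference of −0.22 ± 0.044 (adjusted p = 0.0122), which missed the threshold without GSK343 replicate 2 (0.0567) or XL413 replicate 3 (0.0552). RSEM divides reads between it and its near-identical copy HSPA1B. Of 27 ATF4 targets and integrated stress response genes 5 were called lower (18.5%) and 1 higher (3.7%), against 4.16% and 3.25% of tested genes. The 5 became 2 without XL413 replicate 1, 1 without XL413 replicate 2 and 8 with the correction for GC content and length. PSAT1, an enzyme of serine synthesis, was at 315, 312 and 309 CPM with GSK343, against 349, 349 and 362 CPM with XL413 (log2 −0.18 ± 0.032, adjusted p = 0.00676). PPP1R15A, the phosphatase subunit GADD34 that ends the response, was the one called higher, at 103, 105 and 101 CPM with GSK343 and 79.7, 79.5 and 83.7 CPM with XL413 (log2 0.34 ± 0.039). Of 20 aminoacyl-tRNA synthetases 4 were called lower (20%, against 4.16% of all tested genes). By the same edgeR test 2 stayed called without XL413 replicate 3 and none without XL413 replicate 2, where 5 were lower at an unadjusted p under 0.05. DESeq2 and limma-voom, run on all 6 libraries, called 4 each, and the correction for GC content and length gave 9.

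Called hypoxia and growth-factor genes were higher with GSK343. Of 34 hypoxia and glycolysis genes 7 were called higher with GSK343 (20.6%, against 3.25% of all tested genes). The median log2 difference of the list was only 0.02, with 18 members above 0 and 16 below. Of the called genes, 2 stayed called without GSK343 replicate 2, 2 without XL413 replicate 2, 4 without XL413 replicate 1 and 4 without XL413 replicate 3. CA9, the carbonic anhydrase of hypoxic cells, was at 3.33, 2.99 and 3.48 CPM with GSK343, against 1.78, 2.05 and 1.80 CPM with XL413 (log2 0.80 ± 0.14, adjusted p = 0.00759). It was at 1.46, 1.37 and 1.06 CPM with the combination and 1.42, 2.02 and 1.11 CPM with DMSO, so the 3 GSK343 libraries were the highest of the 12. The aldolase ALDOC differed by 0.33 ± 0.057. Of 27 YAP/TEAD and TGF-beta targets 6 were called higher (22.2%, against 3.25% of all tested genes). The 6 became 2 without GSK343 replicate 2, 2 without XL413 replicate 2 and 3 without XL413 replicate 3. Follistatin FST, which binds activin, was at 99.9, 97.6 and 101 CPM with GSK343, against 70.4, 67.6 and 67.1 CPM with XL413 (log2 0.54 ± 0.039, adjusted p = 3.49e-05). Its DMSO libraries lay between the compounds, at 87.7, 87.7 and 85.7 CPM. ID3, an inhibitor of basic helix-loop-helix factors, differed by 0.27 ± 0.044, and its relative ID2 (0.60 ± 0.13) missed the threshold without GSK343 replicate 2 (adjusted p = 0.0571), XL413 replicate 1 (0.0701) or XL413 replicate 2 (0.0918).

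Long transcripts and short ones did not behave alike. Across 12235 genes with an annotated transcript the log2 difference had a Spearman's rho of 0.232 with transcript length and −0.221 with GC content, a description across genes, which are not independent replicates. The median transcript was 4571 nt among genes called higher with GSK343 and 2789 nt among those called lower, against 3327 nt over all tested genes. Single libraries also leaned with length inside their groups, from a rho of −0.447 in GSK343 replicate 1 to 0.522 in GSK343 replicate 3. With a correction for the GC content and length of transcripts, 1064 of the 1120 called genes stayed called. Beyond this correction, the part of length in the differences was not tested. Ribosomal RNA left in these poly-A libraries, named after its values were seen, differed as well. RNA18S5, the 18S RNA, was at 652, 676 and 675 CPM with GSK343, against 506, 519.8 and 538 CPM with XL413 (log2 0.35 ± 0.035, adjusted p = 0.000171). RNA45S5, its precursor, was lower, at 124, 117 and 81.0 CPM with GSK343, against 179, 177 and 144 CPM with XL413 (log2 −0.64 ± 0.13, adjusted p = 0.0122), and missed the threshold without XL413 replicate 2 (adjusted p = 0.0623). The part of ribosomal RNA in the other differences was not tested. Of 35 centrosome and coiled-coil scaffold genes, most of them long, 6 were called higher (17.1%) and 2 lower (5.71%), against 3.25% and 4.16% of tested genes. The 6 became 1 without XL413 replicate 2 and 3 without XL413 replicate 3. The median log2 difference of the list was 0.06, with 22 of 35 above 0. With the correction for GC content and length 6 were called higher and 6 lower, the median was −0.01 and 16 were above 0, so the lean of this list to higher levels with GSK343 was not seen after it. AKAP9, a scaffold of the Golgi and centrosome (12471 nt), was at 59.4, 63.4 and 70.0 CPM with GSK343, against 53.2, 46.5 and 49.2 CPM with XL413 (log2 0.37 ± 0.064). It lay at 38.8, 25.0 and 41.2 CPM with the combination and 61.1, 57.0 and 60.7 CPM with DMSO, and for all 6 genes the combination mean was nearer to XL413 and the DMSO mean nearer to GSK343. The Golgi scaffolds GOLGA4 (adjusted p = 0.0549), GOLGB1 (0.0721) and TRIP11 (0.0974) missed the threshold without XL413 replicate 2, and TRIP11 also without XL413 replicate 3 (0.0722).

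Several of the largest falls are short, GC-rich mRNAs. C4orf48, a small secreted protein gene (477 nt, GC fraction 0.732), was at 7.23, 6.59 and 3.67 CPM with GSK343, against 18.5, 21.9 and 11.2 CPM with XL413 (log2 −1.57 ± 0.24, adjusted p = 0.00357). The groups did not overlap, but replicate 3 was the lowest of both. Its levels were 16.6, 20.1 and 10.4 CPM with the combination and 5.81, 4.89 and 10.0 CPM with DMSO. TMEM160 (663 nt, GC fraction 0.722, log2 −1.24 ± 0.28) missed the threshold without GSK343 replicate 2 (adjusted p = 0.0754), XL413 replicate 1 (0.0526) or XL413 replicate 2 (0.100). C17orf89 (−0.95 ± 0.14) and the mitochondrial deformylase PDF (−0.82 ± 0.14) completed this set, though PDF is longer (1158 nt). With a correction for GC content and length in the fit, the log2 difference was −1.46 in C4orf48, −1.14 in TMEM160, −0.90 in C17orf89 and −0.75 in PDF. In the long AKAP9 it was 0.28.

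The largest rises with GSK343 came from unrelated genes. PDE3A, a phosphodiesterase of cyclic nucleotides, was at 6.59, 6.50 and 8.09 CPM with GSK343, against 3.59, 3.14 and 3.77 CPM with XL413, a 2.01-fold difference (adjusted p = 0.000714). The means of the combination and of DMSO lay in between, with libraries at 4.46, 3.74 and 4.96 CPM with the combination and 4.51, 4.50 and 4.31 CPM with DMSO. CCNA1, the germline cyclin A1, was at 8.53, 6.90 and 8.58 CPM with GSK343 and 4.23, 4.68 and 3.54 CPM with XL413 (log2 0.95 ± 0.13). The cadherin CDH6 (0.87 ± 0.15) and FAM196B (0.81 ± 0.14) were called as well, while XK (0.75 ± 0.18) missed the threshold without GSK343 replicate 2 (adjusted p = 0.0906), GSK343 replicate 3 (0.0617), XL413 replicate 1 (0.0980) or XL413 replicate 2 (0.108). BCYRN1, a noncoding RNA with an Alu-derived part whose reads are hard to assign, was at 74.0, 87.8 and 70.6 CPM with GSK343, against 42.0, 48.3 and 48.8 CPM with XL413 (log2 0.74 ± 0.079). Among the largest falls, GAGE12D, of a family of near-identical germline antigens, was at 15.7, 14.2 and 13.6 CPM with GSK343 and 28.4, 22.4 and 22.5 CPM with XL413, and the transcription factor KLF2 at 5.17, 4.66 and 4.10 CPM with GSK343 and 7.70, 7.15 and 7.23 CPM with XL413 (log2 −0.67 ± 0.11). The surface antigen gene CD24 (−0.72 ± 0.15) missed the threshold without GSK343 replicate 2 (adjusted p = 0.0643), XL413 replicate 1 (0.0602) or XL413 replicate 2 (0.0657), and C9orf172 (−0.70 ± 0.17) in each of the 6 fits, with an adjusted p of up to 0.113.

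Other differences, named after their values were seen, were large and tight. UCA1, a long noncoding RNA of cancer cells, was at 93.1, 95.5 and 95.4 CPM with GSK343, against 60.1, 58.6 and 59.7 CPM with XL413 (log2 0.67 ± 0.038, adjusted p = 6.67e-06). DMSO lay between them at 73.1, 71.1 and 69.6 CPM. NEAT1, the noncoding RNA that builds paraspeckles, was at 259.6, 253 and 256 CPM with GSK343, against 182, 183 and 183 CPM with XL413 (log2 0.48 ± 0.032, adjusted p = 1.86e-05). ERRFI1, a feedback inhibitor of the EGF receptor, was lower, at 189.6, 189 and 180.0 CPM with GSK343, against 253, 249 and 255 CPM with XL413 (log2 −0.44 ± 0.035, adjusted p = 3.94e-05). The peptide hormone UCN2 (0.64 ± 0.060), the neurofilament NEFL (0.60 ± 0.048), the growth-factor binding protein IGFBP5 (0.63 ± 0.069), the protocadherin PCDH7 (0.69 ± 0.072), the TGF-beta inhibitor PMEPA1 (0.49 ± 0.038) and the semaphorin coreceptor NRP2 (0.45 ± 0.040) were higher with GSK343.

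Interferon genes leaned higher with GSK343 without most of them being called. Of 41 tested 4 were called higher (9.76%, against 3.25% of all tested genes), the median log2 difference was 0.19 and 36 were above 0. The count called was 14 without XL413 replicate 3. None was called without GSK343 replicate 2, XL413 replicate 1 or XL413 replicate 2 (13, 11 and 8 higher at an unadjusted p under 0.05). On all 6 libraries DESeq2 called 3, limma-voom 6 and the correction for GC content and length gave 7. Their summed level by replicate number was 931, 948 and 946 CPM with GSK343 and 844, 862 and 931 CPM with XL413, so XL413 replicate 3 stood level with GSK343 replicate 1. It was 877, 930.3 and 972 CPM with the combination and 922, 849 and 800.5 CPM with DMSO, and the DMSO libraries spread more widely than those of either compound. IFITM1, which blocks viral entry and was among the 10 largest rises, was at 4.29, 5.81 and 5.21 CPM with GSK343 and 1.75, 1.86 and 3.94 CPM with XL413 (adjusted p = 0.0331), and missed the threshold without GSK343 replicate 2 (adjusted p = 0.118), XL413 replicate 1 (0.101) or XL413 replicate 2 (0.131).

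Muscle genes varied among libraries of the same group. TNNT3, a troponin of fast skeletal muscle, had the largest fall of the named genes (log2 −1.61 ± 0.37, adjusted p = 0.0232). It was at 1.87, 0.949 and 1.03 CPM with GSK343 and 5.92, 3.82 and 1.91 CPM with XL413, a wide spread in each group, and it missed the threshold without GSK343 replicate 2 (adjusted p = 0.0954), XL413 replicate 1 (0.0850) or XL413 replicate 2 (0.0718). The summed level of 18 sarcomere and muscle genes, a list drawn up after the values were seen, was 165, 91.2 and 88.0 CPM with GSK343 and 298, 217 and 136 CPM with XL413 by replicate number. It was 212, 123 and 158 CPM with the combination and 92.2, 133 and 249 CPM with DMSO, so that 1 DMSO library exceeded all GSK343 libraries and another lay near their lowest. What sets this level was not tested.

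**Figure D5:**
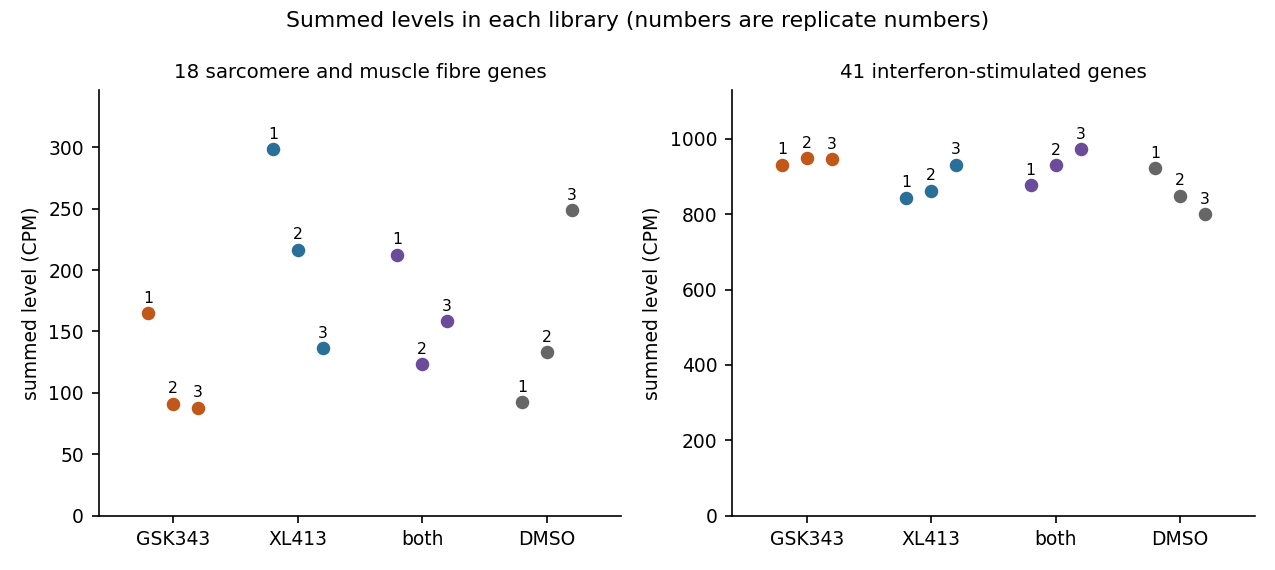
Summed level (CPM) of gene lists in each library, with GSK343 first, then XL413, the combination and DMSO; each point is 1 library with its replicate number. The muscle and interferon sums spread inside groups, and XL413 replicate 3 stands level with GSK343 replicate 1 in the interferon sum.

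Large housekeeping groups held few calls. Of 76 ribosomal protein genes none was called by edgeR's quasi-likelihood test, with 3 at an unadjusted p under 0.05 and none called by DESeq2 or limma-voom, although 75 lay below 0 with a median log2 difference of −0.06. Of 74 respiratory chain subunit genes 2 were called lower (2.7%, against 4.16% of all tested genes, median −0.07). Of 32 proteasome genes none was called, with 5 at an unadjusted p under 0.05 and none called by DESeq2 or limma-voom (median −0.05). Without GSK343 replicate 1, 9 ribosomal protein and 5 respiratory chain genes were called lower. With the correction for GC content and length 4 ribosomal protein, 9 respiratory chain and 5 proteasome genes were. Of 8 epithelial markers the keratins KRT8 (log2 −0.19 ± 0.044) and KRT18 (−0.13 ± 0.033) were called lower (25%, against 4.16% of all tested genes). KRT8 missed the threshold without XL413 replicate 2 (adjusted p = 0.102) or XL413 replicate 3 (0.0907), and KRT18 missed it in 5 of the 6 fits that left out 1 library, with an adjusted p of up to 0.172. The list summed to 611 to 633 CPM with GSK343 and 668 to 703 CPM with XL413, while EPCAM and CDH1 were near 0 in all libraries, as given above. Leukocyte markers summed to 49.3 to 52.1 CPM with GSK343 and 47.7 to 49.2 CPM with XL413.

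Across all called genes, the DMSO level lay near GSK343 about as often as near XL413. Of the 491 genes higher with GSK343, the DMSO mean lay nearer to GSK343 in 216 and nearer to XL413 in 275. Of the 629 genes lower with GSK343, it lay nearer to GSK343 in 314 and nearer to XL413 in 315. The combination mean was nearer to GSK343 in 215 and to XL413 in 276 of the higher genes, or 290 and 201 without combination replicate 2. In the lower genes it was nearer to GSK343 in 234 and to XL413 in 395, or 247 and 382 without that library. These are counts of distances between log2 values of the group mean CPM with 0.5 added, with no test. The DMSO and combination libraries entered no fit.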

How the data were processed

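Poly-A RNA libraries were made with a dUTP strand-specific protocol, per the labels' protocols. The deposited table holds expected counts per gene, which the authors estimated from reads mapped to hg38, with Bowtie2 2.1.0 and RSEM 1.2.15 among the tools, per the submitters' processing notes. For the gene annotation and the strand setting, the sources used here name nothing, and reads of overlapping genes and paralogs were divided by estimate.

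Expected counts were rounded to whole numbers. The 6 GSK343 and XL413 libraries were fitted in R 4.3.3 with edgeR 4.0.16 (TMM scaling, filterByExpr with a minimum count of 10 and a minimum total of 15, which removed 11356 genes, and the quasi-likelihood test, two-sided, with 4 residual degrees of freedom). Genes were called at a Benjamini-Hochberg adjusted p under 0.05 over all tested genes. An SE was obtained by dividing a log2 fold change by the square root of its F statistic, without sign. The other 6 libraries were kept out of the fit knowing that 1 combination library widens the spread. Gene positions, lengths and GC content are from GENCODE 29 on GRCh38. Tests were tried on simulated counts first.

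The groups compared and the 37 gene lists were chosen with earlier results of these data known. Named genes were the 10 largest rises and 10 largest falls among called genes whose mean reached 1 log2 CPM, whose symbol was neither a date nor a LOC or LINC number, and whose groups did not overlap, the compound targets and partners, from each list with at least 3 calls up to 4 called members by smallest p, and of each other list the called members and the one with the highest level. Alternatives were other scalings and filters, DESeq2 1.42.0, limma-voom (limma 3.58.1), fits of 12 and 11 libraries, the replicate block, a correction for GC content and length, a 1.2-fold minimum and leaving out each library in turn. A few genes of the lists are not reported here by name.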

Additional observations from a re-analysis of the deposited data

How the results depend on the processing

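All 1120 genes called between GSK343 and XL413 kept their direction in every setting in which they were tested. The number called was 545 (261 higher, 284 lower with GSK343) in a fit of all 12 libraries, of which 532 were shared, and 1812 (803 higher, 1009 lower) when combination replicate 2 was left out of that fit. It was 2119 (825 higher, 1294 lower) with a correction for the GC content and length of transcripts, of which 1064 were shared. It was 39 (28 higher, 11 lower) when a difference of more than 1.2-fold was required. In the fit of all 12 libraries 17 cholesterol genes were called higher with GSK343, 23 mitotic and 4 heat shock genes lower, 1 coiled-coil gene higher and no interferon gene (10 higher at an unadjusted p under 0.05). With the 1.2-fold minimum, 6 cholesterol genes were higher and 4 mitotic genes lower. Leaving out 1 library gave 333 to 1273 calls, with 154 to 578 higher and 179 to 695 lower. DESeq2, limma-voom, other scalings (RLE, upper quartile) and other filters (none, stricter) gave 1065 to 1423 calls. Upper quartile scaling turned the balance, with 564 higher and 521 lower. The cause of these differences in number was not tested. Over the named genes, 3692 pairs of gene and setting kept their call or their lack of one. Another 576 kept the direction and lost the call, and 43 kept the direction and gained one. No gene called in the main fit or in the other setting changed direction. Pairs called in neither were counted as kept whatever their direction. Counting error limits low genes such as HIST1H2BJ, and the median SE of a log2 difference was 0.0649.

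Same-numbered GSK343 and XL413 libraries had correlations of their deviations of −0.044, 0.113 and 0.127, and GSK343 replicate 1 correlated best with XL413 replicate 2 (0.182). With 3 libraries a group, these values cannot show whether libraries of the same number were handled together. With the replicate number as a block 959 genes were called (394 higher, 565 lower), of which 843 were shared. With the block and the correction for GC content and length 1813 were called (670 higher, 1143 lower).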

Other observations

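The lineage factors of melanoma differed little between the compounds, and in both directions. MITF, the main regulator of the melanocyte lineage, was at 43.5, 45.7 and 50.5 CPM with GSK343 and 39.6, 36.6 and 38.2 CPM with XL413 (log2 0.28 ± 0.058, edgeR adjusted p = 0.0138), and it missed the threshold without XL413 replicate 2 (adjusted p = 0.0726). SOX10, which acts upstream of MITF, was at 314, 329 and 296 CPM with GSK343 and 370.1, 358 and 334 CPM with XL413 (log2 −0.18 ± 0.047), and it missed the threshold without GSK343 replicate 1 (adjusted p = 0.0533), GSK343 replicate 3 (0.0622), XL413 replicate 1 (0.143) or XL413 replicate 2 (0.139). The receptor kinase AXL, a marker of undifferentiated melanoma cells, was at 400.2, 431 and 460.0 CPM with GSK343 and 385, 349.7 and 366 CPM with XL413 (log2 0.23 ± 0.051), and it missed the threshold without GSK343 replicate 2 (adjusted p = 0.0747), XL413 replicate 2 (0.107) or XL413 replicate 3 (0.0721). Of 31 tested genes of the undifferentiated state 2 were called higher and 2 lower with GSK343 (6.45% each, against 3.25% and 4.16% of all tested genes).

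Of 27 tested genes downstream of BRAF, the mutated kinase of this line, 2 were called higher (7.41%) and 1 lower (3.70%) with GSK343, against 3.25% and 4.16% of all tested genes, and the median log2 difference was 0.01. MYC, a growth-promoting transcription factor, had a log2 difference of 0.31 ± 0.075 and missed the threshold without GSK343 replicate 2 (adjusted p = 0.106), XL413 replicate 1 (0.0580), XL413 replicate 2 (0.0662) or XL413 replicate 3 (0.106). The phosphatase DUSP4 (0.13 ± 0.036) missed it in 4 of the 6 fits that left out 1 library, with an adjusted p of up to 0.172, and the survival gene IER3 (−0.20 ± 0.039) without XL413 replicate 2 (adjusted p = 0.0659). Of 20 endoplasmic reticulum chaperones and regulators 1 was called lower with GSK343 (5%, against 4.16% of all tested genes) and none higher. The called gene was XBP1, the transcription factor of the unfolded protein response, at 41.9, 45.0 and 38.4 CPM with GSK343 and 49.5, 51.1 and 49.5 CPM with XL413 (log2 −0.26 ± 0.055). It missed the threshold without XL413 replicate 2 (adjusted p = 0.0750).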
